A study of Zea mays with 30 samples.

Results

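The genes described here encode the proteins of the cytosolic ribosome. They are the genes named by a probe of the 3 cDNA chips whose symbol or synonym marks a large subunit protein (rpl), a small subunit protein (rps) or an acidic P protein (rpp), with genes of the plastid ribosome left out. The rule found 17 of 866 named genes, with 146 spots. Of these, 6 belong to the large subunit, 6 to the small subunit and 5 to the P proteins. The rule used gene symbols and no measured value. The annotation gives symbols without descriptions. *prpl35-1* was left out as a plastid gene by its symbol, and *rpl29* from general knowledge of maize L29 as a plastid protein, which the sources used here do not state. *rpl2* and *RPS10* were left out because their compartment is not given either. 1 spot annotated to both S6 genes was not counted for either.

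SAMs (shoot apical meristems, with the founder cells of the next leaf) were laser microdissected from seedlings of maize, *Zea mays*, 2 weeks after germination, and the question was which transcripts differ when NS1 function is lost. The ns mutant seedlings had the genotype *ns1-R* and *ns2-R* and the nonmutant seedlings *Ns1/ns1-R* and *ns2-R*, so that both carried the *ns2-R* mutation and the comparison reads NS1 alone. Both came from 1 highly introgressed line in which mutants and nonmutants segregate. Each of the 6 biological replicates is a pool of dissected SAMs, and its RNA was amplified in 2 rounds before labelling. The chips are called SAM 1.1, SAM 2.0 and also SAM 3.0, each with its own set of cDNA spots, and on each chip 6 arrays set ns against nonmutant RNA, with ns in Cy5 on 3 arrays and in Cy3 on the other 3.

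A ribosome reads messenger RNA on its small subunit and joins amino acids on its large subunit, and each subunit is a ribosomal RNA core covered by ribosomal proteins that are needed in matched amounts. The acidic P proteins are not part of that core. They form the flexible lateral stalk of the large subunit, which binds the elongation factors, and P3 is a form known only in plants. Dividing cells make ribosomes at a high rate, so ribosomal protein transcripts are typically among the most abundant in a meristem.

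A value of an array below is the log2 ratio of ns over nonmutant signal with the fitted dye effect taken out, so that 0 means equal signal. A fitted ratio is given ± its standard error from the limma fit to 6 arrays. In that fit the variance of a gene is drawn towards that of all features of the chip. P-values are from limma, adjusted by Benjamini-Hochberg over all features of a chip, 17983 on SAM 1.1, 13704 on SAM 2.0 and 15439 on SAM 3.0, where a feature is a named gene, as the mean of its spots, or a single unnamed spot. Median signal over background of a channel lay between 2.93 and 40.5 over all arrays and scans but 1. The exception was 308, in Cy3 of the mid scan of replicate 1 on SAM 3.0. The low and high scans of that array gave 36.2 and 17.5 in Cy3. *ns1* had 2 spots, both on SAM 3.0, and its values ranged from -0.85 to 0.64 with a median of -0.17. The ratio was -0.09 ± 0.16 (adjusted p = 0.940) and was lower in ns on 4 of 6 arrays, so the *ns1* transcript did not check the labels. *ns2*, mutant in both groups, gave -0.04 ± 0.15, 0.21 ± 0.20 and 0.33 ± 0.22 on the 3 chips (adjusted p = 0.965, 0.870 and 0.885). *kn1*, the knotted homeobox gene that marks the meristem, had a signal percentile of 65.6, 58.4 and 67.4 among all features of the 3 chips. On SAM 1.1 its arrays ran from -0.40 through a median of -0.19 to -0.05, below 0 on 6 of 6, with a ratio of -0.22 ± 0.11 (adjusted p = 0.830), lower than that of any ribosomal gene on the chip. On SAM 2.0 and SAM 3.0 the ratio of *kn1* was -0.07 ± 0.12 and -0.04 ± 0.07 (adjusted p = 0.950 and 0.938). The meristem list as a whole had 3 of 4, 3 of 6 and 5 of 7 genes below 0, with medians of -0.07, 0.06 and -0.06. Of the green leaf genes, which mark leaf tissue, 7 of 10, 6 of 11 and 5 of 6 had a ratio above 0, with medians of 0.05, 0.05 and 0.04 on the 3 chips. Of all features, 46.5, 51 and 49.9% had a ratio above 0. The marker lists are short, and no direction is read from these counts. The vascular list had 2 genes, *ccr2* and *BM1*. *ccr2* was above 0 on 6 of 6 arrays of SAM 3.0, from 0.15 to 0.33, at 0.24 ± 0.07 (adjusted p = 0.885), and on 3 of 6 before its dye effect was taken out. On SAM 1.1 it gave 0.05 ± 0.17, and *BM1* gave -0.05 ± 0.11 there and 0.07 ± 0.14 on SAM 2.0. The part of these markers in the ribosomal ratios was not tested.

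No change of a cytosolic ribosomal protein gene named by a probe passed an adjusted p-value of 0.05 on any chip. Any ribosomal protein spots without a symbol fall outside this count. The study selected its genes by unadjusted p-value, in part with a fold change, which is another threshold. It lists ribosome structure among the predicted functions of the selected genes. Those genes were not compared with the list used here. The count with an adjusted p-value under 0.05 was 0 of 15 genes for SAM 1.1, 0 of 15 for SAM 2.0 and 0 of 14 for SAM 3.0, where 0.00556, 0.0365 and 0.013% of all features passed. The lowest adjusted p-values of these genes were 0.832, 0.723 and 0.885. Without adjustment, 0 genes on SAM 1.1, 2 genes on SAM 2.0 and 0 genes on SAM 3.0 had a p-value under 0.05, against 5.14, 6.44 and 5.13% of all features. Of the 2 genes, *rpp2b* was higher in ns, as were 3.22% of the features of SAM 2.0 at this threshold, and *rpl19* was lower, as were 3.23%. On SAM 1.1 2.36% of features were higher and 2.78% lower at this threshold, and on SAM 3.0 2.58% were higher and 2.55% lower. A share of 2 of 15 rests on so few genes that nothing is read from it. The methods' t-test, the ordinary regression of the study's model, also gave an adjusted p-value under 0.05 to 0 of these genes on each chip, and an unadjusted one to 0, 2 and 1. No ratio was past 1.5-fold either way. Of all features, 44 of 17983, 56 of 13704 and 6 of 15439 were, so nothing is read from this. The widest 95% bound of a gene was 1.43-fold, 1.59-fold and 1.30-fold in the order of the chips. The intervals thus leave room for changes of single genes, on SAM 2.0 also past 1.5-fold, and the number of arrays limits the precision.

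The ratios lay close to 0 and slightly below it. On SAM 1.1 they ranged from -0.17 to 0.13 with a median of -0.08, and 9 of 15 genes were lower in ns. On SAM 2.0 the range was wider, from -0.36 to 0.34, with a median of -0.09 and again 9 of 15 genes lower. On SAM 3.0 the ratios lay between -0.16 and 0.13 with a median of -0.04, and 10 of 14 genes were lower. The median over all features was -0.013, 0.0038 and -0.00015 on the same chips, where 46.5, 51 and 49.9% of features had a ratio above 0.

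**Figure D1:**
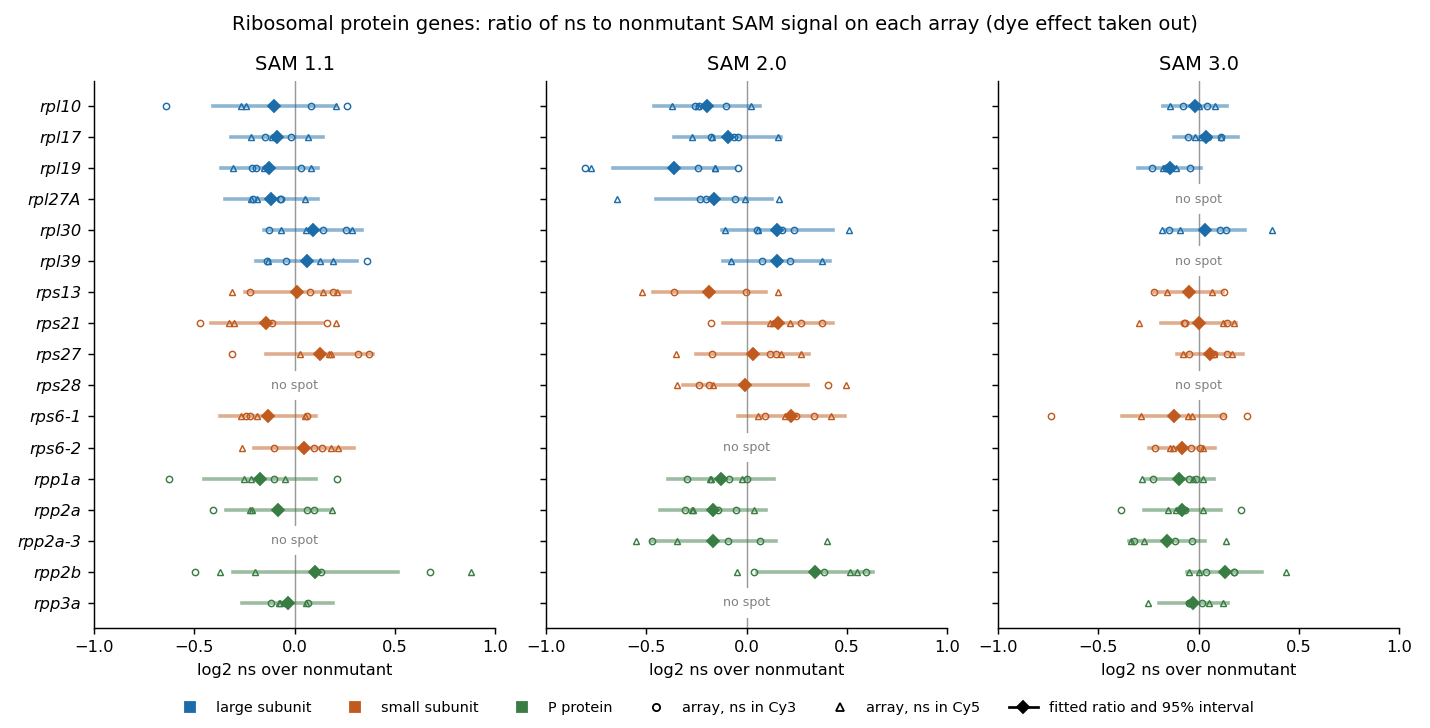
Log2 ratio of ns over nonmutant signal (x axis) of each cytosolic ribosomal protein gene (y axis, coloured by class), with 1 panel a chip. Open circles (ns in Cy3) and triangles (ns in Cy5) are the 6 arrays with the dye effect taken out, and diamonds with bars are the fitted ratio and its 95% interval. Fitted ratios lie between -0.36 and 0.34, and 2 intervals, those of rpp2b and rpl19 on SAM 2.0, leave out 0.

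The median of the list varied between arrays by more than its distance from 0. In single arrays of SAM 1.1 it lay between -0.22 and 0.12. SAM 2.0 gave -0.24 to 0.13, and SAM 3.0 gave -0.15 to 0.0063. The SD of these array medians was 0.144, 0.124 and 0.0567, where that over all features was 0.0220, 0.0111 and 0.00634, over lists of very different size. Subtracting the median of all features in each array gave a mean of -0.06 ± 0.13 (SD, n = 6 arrays) on SAM 1.1, with the ribosomal genes lower on 4 of 6 arrays. The same difference was -0.04 ± 0.12 on SAM 2.0 and -0.04 ± 0.05 on SAM 3.0, each lower on 5 of 6 arrays. None of the 3 differences was larger than its SD between arrays. That SD is the spread of single arrays and not the error of their mean, and no test was run. In these bulk samples, fewer cells of a type and less RNA per cell cannot be told apart.

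Among the large subunit genes, *rpl19* had the lowest ratios. L19 reaches from the large to the small subunit in an intersubunit bridge. Its 6 arrays on SAM 2.0 were -0.81 at the lowest, -0.20 at the median and -0.04 at the highest. All were below 0, and replicates 2 and 3 stood apart from the other 4, which lay between -0.24 and -0.04. The fitted ratio was -0.36 ± 0.14, a fold of 0.777 with a 95% interval from 0.630 to 0.959 (adjusted p = 0.723). The 2 spots of *rpl19* there gave -0.49 and -0.24. On SAM 3.0 its single spot ranged from -0.23 to -0.04 with a median of -0.15, again below 0 on 6 of 6 arrays. The fold was 0.905 with an interval from 0.811 to 1.01 (adjusted p = 0.885). Values below 0 on every array were found for 2 genes of the list on SAM 2.0, *rpl19* and *rpp1a*, and for *rpl19* alone on SAM 3.0, where 2.58 and 2.99% of all features had them. On SAM 1.1, where 3.55% of features were below 0 and 1.95% above 0 on every array, no gene of the list was. On SAM 1.1 the 7 spots of *rpl19* averaged -0.13 ± 0.11 (adjusted p = 0.845), with array values from -0.31 to 0.08 and 4 of 6 below 0.

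*rpl10*, whose product joins the large subunit late in its assembly, had a fitted ratio below 0 on all 3 chips too. Its arrays on SAM 2.0 ran from -0.37 through a median of -0.24 to 0.02, with 5 of 6 below 0. The ratio was -0.20 ± 0.13 (adjusted p = 0.806). On SAM 1.1 the arrays of *rpl10* were spread from -0.64 to 0.26, 3 on each side of 0, and on SAM 3.0 they stayed between -0.14 and 0.08. The fitted values there were -0.10 ± 0.14 (adjusted p = 0.892) and -0.02 ± 0.07 (adjusted p = 0.980). The first turned to 0.045 with array weights and to 0.035 without replicate 3, and the second to 0.0050 with the brightest spot and to 0.012 without replicate 4.

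*rpl30* was the large subunit gene above 0 on each chip. In yeast its protein binds its own transcript and holds back splicing. Its medians over arrays were 0.10, 0.12 and 0.01, in ranges of -0.13 to 0.28, -0.11 to 0.51 and -0.18 to 0.37. Arrays on both sides of 0 occurred on every chip, and the fitted ratios of 0.09 ± 0.11, 0.15 ± 0.13 and 0.03 ± 0.09 had adjusted p-values of 0.881, 0.847 and 0.970. On SAM 3.0 the ratio turned to -0.095 with array weights and to -0.053 without replicate 5.

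L17 and L39 both line the tunnel through which the new protein leaves the ribosome. *rpl17*, with 10, 4 and 5 spots, gave -0.09 ± 0.10 on SAM 1.1 and -0.09 ± 0.13 on SAM 2.0, below 0 on 5 of 6 arrays each, and 0.04 ± 0.07 on SAM 3.0 (adjusted p = 0.877, 0.923 and 0.950). *rpl39*, spotted on the first 2 chips, gave 0.06 ± 0.11 and 0.15 ± 0.13 (adjusted p = 0.922 and 0.845). Both tunnel genes thus lay within about 1 standard error of equal signal on every chip. *rpl27A*, a further core protein gene, had array values of -0.22 to 0.05 on SAM 1.1 and of -0.65 to 0.16 on SAM 2.0, with 5 of 6 arrays below 0 on each. Its ratios were -0.12 ± 0.10 (adjusted p = 0.849) and -0.16 ± 0.14 (adjusted p = 0.844).

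The small subunit genes were scattered around 0. S6 is the ribosomal protein that S6 kinase phosphorylates in the growth signalling pathway of TOR, and maize has the genes *rps6-1* and *rps6-2* for it on these chips. The single *rps6-1* spot of SAM 2.0 ranged from 0.06 through a median of 0.22 to 0.42, above 0 on 6 of 6 arrays, as for 2.76% of all features. No other gene of the list was above 0 on every array of a chip, on SAM 3.0 against 2.32% of features. Its fold was 1.17 with an interval from 0.971 to 1.4 (adjusted p = 0.797). On SAM 1.1 the 5 spots of *rps6-1* averaged -0.13 ± 0.11 (adjusted p = 0.836), below 0 on 4 of 6 arrays. On SAM 3.0 its spot was dim, and the arrays ran from -0.73 to 0.24 around a ratio of -0.12 ± 0.12 (adjusted p = 0.911). *rps6-1* thus had no common direction on the 3 chips. *rps6-2* gave 0.04 ± 0.11 on SAM 1.1 and -0.08 ± 0.07 on SAM 3.0 (adjusted p = 0.944 and 0.911).

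*rps27*, for a zinc finger protein of the small subunit, was above 0 on each chip at 0.13 ± 0.12, 0.03 ± 0.13 and 0.06 ± 0.07 (adjusted p = 0.859, 0.989 and 0.928). Its arrays lay on both sides of 0 everywhere, with 5, 4 and 4 of 6 above it, and on SAM 2.0 the ratio turned to -0.014 with array weights, to -0.0047 without replicate 3 and to -0.030 without replicate 5. On SAM 1.1 the ratios of *rps27* before the dye effect of -0.39 was taken out were above 0 on 3 of 6 arrays. *rps13* went from 0.01 ± 0.12 on SAM 1.1 to -0.19 ± 0.13 on SAM 2.0 and -0.05 ± 0.08 on SAM 3.0 (adjusted p = 0.985, 0.820 and 0.938). *rps21* gave -0.14 ± 0.13, 0.16 ± 0.13 and -0.00024 ± 0.09 (adjusted p = 0.848, 0.843 and 1). Neither gene differed from equal signal by more than about 1.5 standard errors. *rps28*, for a protein near the exit of the mRNA channel, was spotted on SAM 2.0 alone, where arrays from -0.35 to 0.49 gave -0.0063 ± 0.15 (adjusted p = 0.997).

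The P protein genes held the highest single ratio of the list. *rpp2b*, for a P2 protein, had 1 spot on SAM 2.0, with arrays from -0.05 through a median of 0.45 to 0.60. Replicates 1, 2, 4 and 5 lay between 0.38 and 0.60, while replicates 3 and 6 were at -0.05 and 0.04. Before the dye effect of -0.31 was taken out, the arrays with ns in Cy5 gave 0.21, -0.36 and 0.24. Those with ns in Cy3 gave 0.69, 0.90 and 0.35. The fitted ratio was 0.34 ± 0.14, a fold of 1.26 with an interval from 1.04 to 1.55 (adjusted p = 0.732). The deposited intensities, before background correction and normalization, had geometric means of 14128 in ns and 10255 in nonmutant SAMs over the 6 arrays. On SAM 3.0 the 2 spots of *rpp2b* gave -0.05, 0.10 and 0.44 at the lowest, median and highest array. The fold was 1.09 with an interval from 0.961 to 1.24 (adjusted p = 0.885). On SAM 1.1 its arrays spread most, from -0.49 through -0.03 to 0.88, and the ratio of 0.10 ± 0.19 (adjusted p = 0.918) had the widest interval of the list on that chip. It turned to -0.040 without replicate 1 and to -0.091 without replicate 4.

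The fitted ratios of the other P protein genes were below 0, but those of *rpp2a* and *rpp3a* changed sign under other settings. *rpp1a*, for a P1 protein, had array medians of -0.16, -0.13 and -0.04 on the 3 chips and was below 0 on 5, 6 and 5 of 6 arrays. Its ratios of -0.17 ± 0.13, -0.13 ± 0.12 and -0.10 ± 0.08 had adjusted p-values of 0.832, 0.868 and 0.899. Before the dye effect was taken out, *rpp1a* was below 0 on 3, 5 and 4 of 6 arrays. *rpp2a*, the gene with the most spots at 20, 2 and 6, gave -0.08 ± 0.12, -0.17 ± 0.13 and -0.08 ± 0.09 (adjusted p = 0.898, 0.829 and 0.913). Its 2 spots on SAM 2.0 were dim, with signals over background of 1.84 in the ns channel and 2.20 in the nonmutant channel. With dim spots left out or the brightest spot alone its ratio there turned to 0.089, and on SAM 3.0 the brightest spot alone gave 0.040. *rpp2a-3* gave -0.17 ± 0.15 on SAM 2.0 and -0.16 ± 0.09 on SAM 3.0 (adjusted p = 0.850 and 0.885), where its array median of -0.19 was the lowest of the list. *rpp3a*, for the plant P3 protein, stayed closest to 0, at -0.03 ± 0.10 on SAM 1.1 and -0.03 ± 0.08 on SAM 3.0 (adjusted p = 0.956 and 0.970). The first turned to 0.0028 with scaling between arrays, and the second to 0.0058 and 0.013 in the low and mid scans alone and to 0.031 without replicate 4.

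Since both P1 and P2 proteins sit on the same stalk, *rpp2b* was also set against its partners within each array. These pairs were chosen after the values were seen and are given with no test. *rpp2b* minus *rpp1a* was 0.28 ± 0.48 (SD, n = 6) on SAM 1.1, 0.47 ± 0.36 on SAM 2.0 and 0.23 ± 0.27 on SAM 3.0, higher on 4, 5 and 4 arrays. Against *rpp2a* the differences were 0.19 ± 0.55, 0.51 ± 0.34 and 0.21 ± 0.18, higher on 3, 5 and 5 arrays. Only the differences on SAM 2.0 and that to *rpp2a* on SAM 3.0 were larger than their SD between arrays. *rpp2b* also stood above *rpp2a-3* by 0.51 ± 0.37 on SAM 2.0 and 0.29 ± 0.31 on SAM 3.0, on 5 of 6 arrays each. Its differences to *rpp3a*, 0.14 ± 0.61 on SAM 1.1 and 0.16 ± 0.30 on SAM 3.0, were within the SD.

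The 3 classes had no common order of median ratios over the 3 chips. The median ratio of the large subunit, small subunit and P protein genes was -0.09, 0.01 and -0.06 on SAM 1.1. On SAM 2.0 these medians were -0.13, 0.03 and -0.15, and on SAM 3.0 they were 0.0058, -0.05 and -0.08. Large minus small subunit medians within arrays were -0.05 ± 0.21 (SD, n = 6), -0.08 ± 0.17 and 0.02 ± 0.10, with the large subunit higher on 3, 2 and 4 arrays. P protein minus small subunit medians were -0.09 ± 0.20, -0.05 ± 0.14 and -0.05 ± 0.09, with the P proteins higher on 3, 2 and 2 arrays. P protein minus large subunit medians were -0.03 ± 0.20, 0.03 ± 0.03 and -0.07 ± 0.12, with the P proteins higher on 2, 5 and 2 arrays. None of these differences was larger than its SD between arrays. That SD is the spread of single arrays and not the error of their mean, and no test was run. With 1 replicate left out, the small subunit median spanned 0 on each chip, at -0.04 to 0.10, -0.0047 to 0.13 and -0.08 to 0.02, and so did the large subunit median on SAM 3.0, at -0.05 to 0.03. The large subunit median stayed below 0 on SAM 1.1, at -0.11 to -0.05, and on SAM 2.0, at -0.20 to -0.05. The P protein median stayed below 0 on each chip, at -0.10 to -0.03, -0.14 to -0.11 and -0.11 to -0.02.

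**Figure D2:**
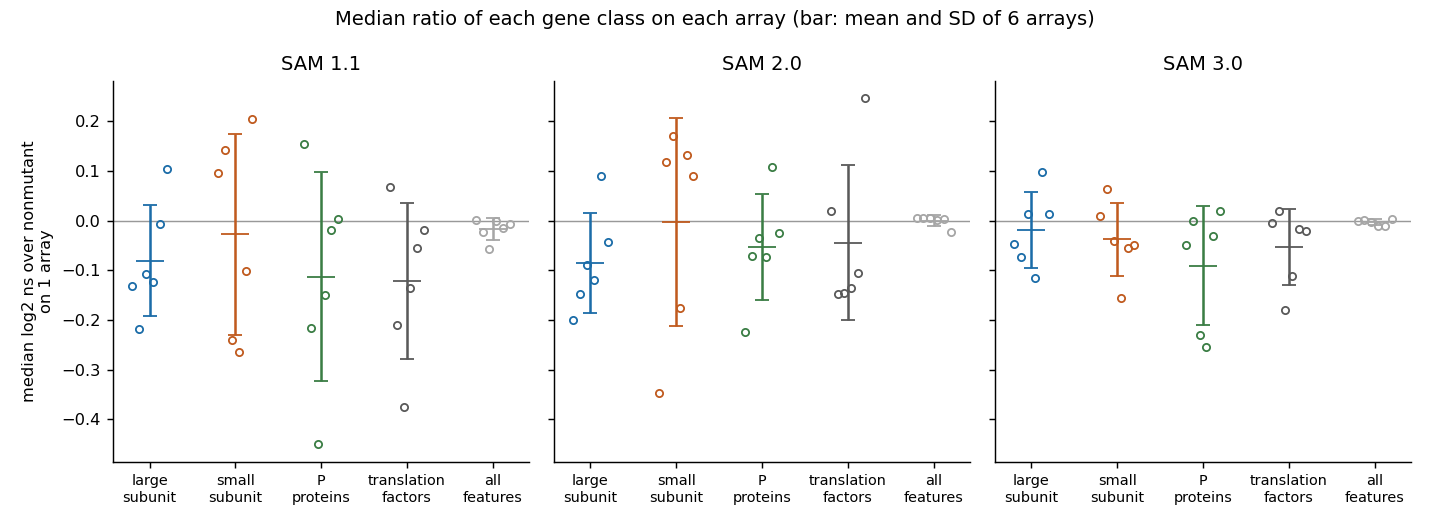
Median log2 ratio of ns over nonmutant signal (y axis) of the large subunit, small subunit, P protein and translation factor genes and of all features in each of the 6 arrays (circles), with the mean and SD over arrays (bars) and 1 panel a chip. The circles of the 3 ribosomal classes overlap on every chip, and those of all features lie close to 0.

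11 of the 17 genes had a spot on all 3 chips. The study describes the same 6 replicate pairs as measured on every chip, so that chips are not independent repeats. 4 genes, *rpl10*, *rpl19*, *rpp1a* and *rpp2a*, were below 0 on every chip, 3 genes, *rpl30*, *rps27* and *rpp2b*, were above 0 on every chip, and *rpl17*, *rps13*, *rps21* and *rps6-1* were mixed. Only *rpl19* and *rpp1a* of the first 7 kept these signs under every alternative and left-out replicate. *rpl10*, *rpp2a*, *rpl30*, *rps27* and *rpp2b* each turned on at least 1 chip, as given with their ratios. Of the 259 named genes with a spot on every chip, 27.8% were below 0 on all 3 and 13.5% above 0 on all 3. At 4 and 3 of 11 the counts rest on few genes, and nothing is read from them. 6 cDNA clones of *rpl30*, *rps13* and *rps27* were spotted on more than 1 chip, and for 6 of 6 the ratios on both chips differed by less than the standard error of the difference, by 0.04 to 0.15 on the log2 scale. That standard error takes the chips as independent, which they are not, so no agreement is read from it. A clone of *rps13* gave 0.04 on SAM 1.1 and -0.03 on SAM 3.0, and a clone of *rps27* gave 0.13 and -0.01. The other clones kept their sign.

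**Figure D3:**
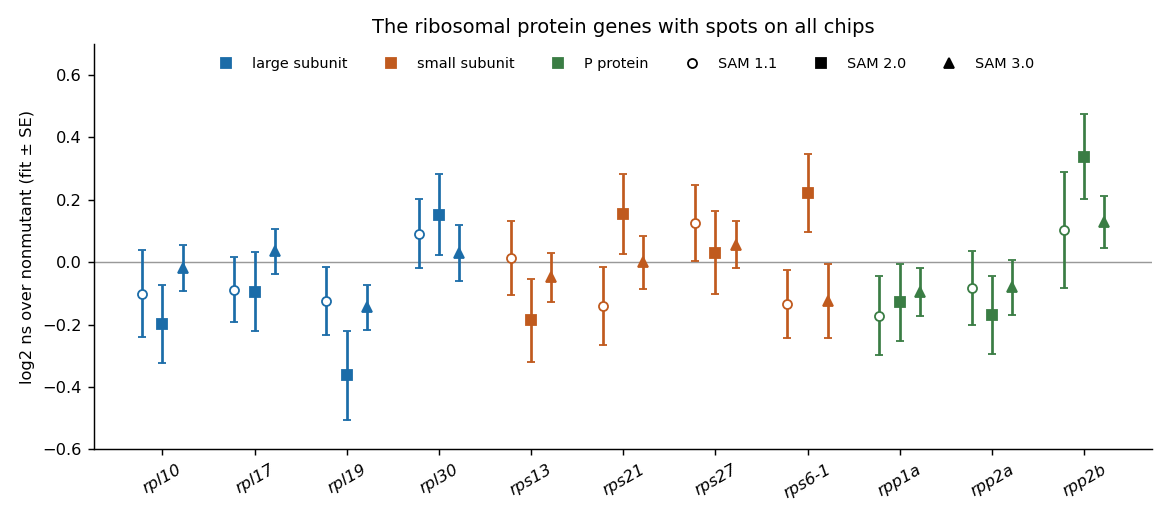
Fitted log2 ratio of ns over nonmutant signal (y axis), with its standard error as bars, of the 11 genes with a spot on every chip (x axis, coloured by class), with a marker for each chip. 4 genes lie below 0 and 3 above 0 on all chips, of which rpl10, rpp2a, rpl30, rps27 and rpp2b turned on a chip under another setting, and rps6-1 lies above 0 on SAM 2.0 alone.

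Different spots of 1 gene did not always point the same way. Of the genes with several spots, 5 of 14 on SAM 1.1, 3 of 10 on SAM 2.0 and 5 of 7 on SAM 3.0 had spots on both sides of 0. Among single spots, 2 of 82, 4 of 30 and 0 of 34 had an unadjusted p-value under 0.05, against 5.18, 6.48 and 5.19% of all spots, and 0 passed adjustment, against 0.0104, 0.0355 and 0.0125% of all spots. The 20 *rpp2a* spots of SAM 1.1 ran from -0.59 to 0.23, with 6 above 0. The symbols are those of the probe annotation, and maize holds near copies of many ribosomal protein genes that a cDNA spot can bind, so that a spot named for 1 gene may also read its copies.

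The ribosomal protein spots were bright in the SAM. The signal percentile of a gene is the rank of its mean log2 signal in both channels among all features of the chip, and it is a description, since spot signal also follows the spotted DNA and its length. The list had a median percentile of 71.9 on SAM 1.1, of 91.7 on SAM 2.0 and of 80.4 on SAM 3.0, where that of all named genes was 53.7, 55.3 and 56.4. 7 of 15, 10 of 15 and 9 of 14 genes lay above the 75th percentile. Green leaf genes had medians of 26.9, 28.003 and 26.1, the meristem genes 54.5, 48.6 and 52.0, and the translation factors 77.1, 87.3 and 77.2.

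*rps21* was the brightest gene of the list on each chip, at percentiles of 97.6, 99.0 and 96.5, and single arrays placed it between 94.5 and 99.6. On SAM 1.1 *rpl10* (96.9) and *rps27* (91.6) came next, on SAM 2.0 *rps27* (98.9) and *rps6-1* (97.9), and on SAM 3.0 *rpl19* (96.4) and *rps6-2* (96.0). The array ranges of these neighbours overlapped, except those of *rpl10* and *rps27* on SAM 1.1, and their order is not read further. *rps21* had 1 spot on each chip, where many other genes are means of several spots, and other genes had brighter single spots. Among single spots *rps21* was at percentiles of 97.0, 98.9 and 96.1. The brightest spots of the list were *rpl39* on SAM 1.1 (98.4) and *rps27* on SAM 2.0 (99.8) and SAM 3.0 (99.9). The dimmest genes were *rpl30* (53.2), *rps6-2* (57.6) and *rps6-1* (58.3) on SAM 1.1, *rpp2a* (19.8), *rpl27A* (31.3) and *rpl19* (45.5) on SAM 2.0, and *rps6-1* (23.0), *rpl30* (48.7) and *rpp2b* (63.4) on SAM 3.0. The rank of a gene thus depended on the spot that represented it. *rps6-1* went from percentile 97.9 on SAM 2.0 to 23.0 on SAM 3.0, and the 5 *rpl17* spots of SAM 3.0 alone covered percentiles 6.02 to 99.7. By class, the medians of large subunit, small subunit and P protein genes were 76.9, 71.5 and 77.4 on SAM 1.1. They were 87.0, 97.9 and 74.2 on SAM 2.0, and 72.9, 92.8 and 80.0 on SAM 3.0. The small subunit median was above that of the large subunit on 1 of 6 arrays of SAM 1.1 and on 6 of 6 arrays of SAM 2.0 and of SAM 3.0, so no class was brightest throughout.

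**Figure D4:**
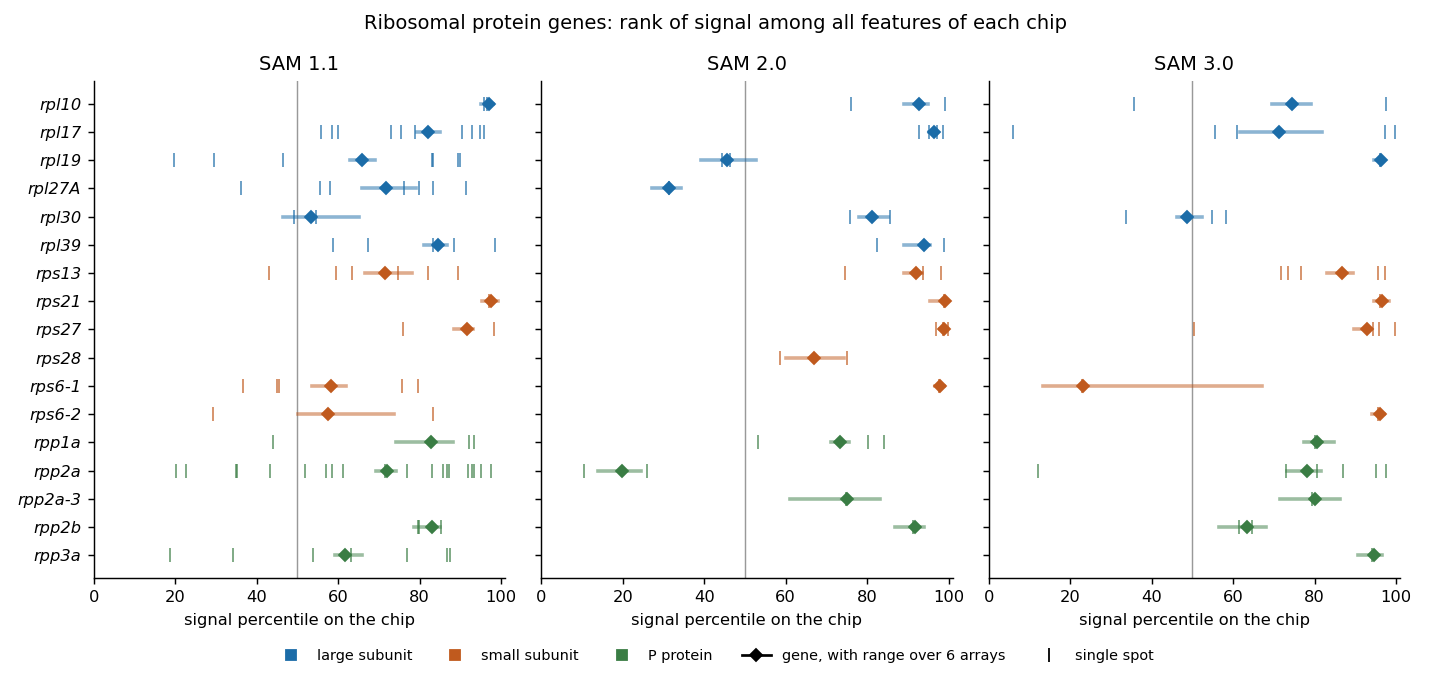
Signal percentile among all features of the chip (x axis, 0 to 100) of each cytosolic ribosomal protein gene (y axis, coloured by class), with 1 panel a chip. Diamonds are genes, bars the range over 6 arrays and ticks single spots, and the grey line marks percentile 50. Most genes lie to the right of the line, with rps21 far right on each chip and the spots of 1 gene often far apart.

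Bright spots can saturate the scanner, which draws a ratio towards 0. 2 of 984 readings of ribosomal spots on SAM 1.1, 9 of 360 on SAM 2.0 and 28 of 1224 on SAM 3.0 were saturated. Of the last, 15 belonged to the brightest *rps27* spot (of its 36 readings) and 9 to the brightest *rpl17* spot.

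Translation factors, which work on the ribosome, had median ratios of -0.10, -0.06 and -0.05, with 10 of 12, 7 of 10 and 8 of 12 genes below 0 and 0 past the adjusted threshold on each chip. Of all features, 46.5, 51 and 49.9% were above 0, and no direction is read from so few genes. The ribosomal gene ratios ranged from -0.17 to 0.13, -0.36 to 0.34 and -0.16 to 0.13 in the order of the chips. Those of the translation factors ranged from -0.25 to 0.06, -0.11 to 0.09 and -0.15 to 0.06. The lowest p-values were those of *EIF5* on SAM 1.1 (-0.25 ± 0.13, adjusted p = 0.830), an initiation factor, *elfa2* on SAM 1.1 (-0.20 ± 0.12, adjusted p = 0.830), an elongation factor, and *tif1* on SAM 3.0 (-0.13 ± 0.07, adjusted p = 0.885). Ribosomal minus translation factor medians within arrays were 0.05 ± 0.08 (SD, n = 6), 0.0019 ± 0.22 and 0.0064 ± 0.06. None was larger than its SD between arrays, and no test was run. *prpl35-1*, for a plastid ribosomal protein, was dim, at percentile 12.6 on SAM 2.0, and its arrays ran from -0.38 through -0.34 to -0.14. It was below 0 on 6 of 6 arrays, with a ratio of -0.29 ± 0.12 (adjusted p = 0.766). *rpl29*, also of the plastid, gave -0.05 ± 0.13 on SAM 2.0 and -0.10 ± 0.08 on SAM 3.0 (adjusted p = 0.966 and 0.907). *rpl2* gave 0.04 ± 0.13 on SAM 2.0 (adjusted p = 0.983), and *RPS10* gave -0.19 ± 0.12 on SAM 1.1 and -0.06 ± 0.09 on SAM 3.0 (adjusted p = 0.830 and 0.935).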

How the data were processed

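Laser-microdissected SAM RNA was amplified, labelled and hybridized to 2-colour cDNA chips in 6 biological replicates, with dyes swapped between arrays. For each array the authors deposited spot and local background intensity in both channels, from ScanArray scans and image software, and the natural log of both channels, background-corrected, LOWESS-normalized and median-centred. The 3 deposited series tables repeat the natural log ratio and were not used.

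From the deposited intensity, background was corrected by normexp (offset 50), log2 ratios were normalized by loess (span 0.3) and channels were median-centred. The 3 scans of an array of SAM 3.0 were normalized singly and averaged before the fit. Scans of the same number correlated at 0.971 to 0.998 and those of different numbers at 0.915 to 0.972. Spots of a named gene were averaged within a chip. A dye effect and an ns effect were fitted to the 6 arrays of each chip, as in the methods, with limma 3.58.1 (lmFit and eBayes, R 4.3.3) (4 residual degrees of freedom), and p-values were adjusted over the chip by Benjamini-Hochberg. The ns and nonmutant RNA of a replicate share an array and are thereby paired. The procedure was tested on simulated data.

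Genes were named from the platform annotation, and 15 of the 17 ribosomal genes (not *rpl27A* and *rps28*) matched the maize gene table. Genes named in the text were all P protein genes, those on all 3 chips, the 3 highest and lowest ratios and the 3 brightest and dimmest genes of each chip, and up to 3 genes by lowest p from other lists. *rpl39* and *rps28* fall outside this rule and were added after their values were seen, so that every ribosomal gene is given, as were the marker genes *kn1*, *ccr2* and *BM1*. Translation factor, plastid, meristem, green leaf and vascular lists were matched by symbol, and lists of ribosome biogenesis and ubiquitin genes matched 0 genes. The members and lists were chosen with earlier results of these data known. The alternatives were other background and normalization choices, no dye term, array weights, the brightest spot, dim spots left out, single scans, the authors' values, the methods' t-test, unpaired channels and each replicate left out. No genome build is given in the sources used here.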

Additional observations from a re-analysis of the deposited data

How the results depend on the processing

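By limma and by the methods' t-test, the count of ribosomal genes with an adjusted p-value under 0.05 was 0 on each chip under every alternative run, where the lowest adjusted p-value of a gene was 0.1499 (*rpp2a-3* on SAM 3.0 with array weights). By the methods' t-test 0 of all features passed on each chip, so its count adds nothing. The list median stayed below 0 in each, between -0.10 and -0.02 on SAM 1.1, -0.13 and -0.00053 on SAM 2.0 and -0.06 and -0.0042 on SAM 3.0. With no replicate block, that is with the channels of an array unpaired, the unadjusted count on SAM 2.0 fell from 2 to 0, and no count of adjusted calls changed. That count was 3 with no background correction, 1 with no dye intercept and 1 with the brightest spot of each gene, and 0 to 2 with a replicate left out (0 without replicate 2, 1 without replicate 1, 3 or 4). On SAM 3.0 the unadjusted count of 0 was 1 with no background correction, 1 by the methods' t-test, 2 with array weights and 0 to 1 with a replicate left out (1 without replicate 5). Adding *rpl2* and *RPS10*, an alternative chosen after seeing the data, changed no count.

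Of 44 ratios of a gene on a chip, 28 kept their sign in every setting run and 16 did not, 12 of them under an alternative and 11 with a left-out replicate, some under both, and the cause was not tested. Scaling between arrays turned *rpp3a* to 0.0028 and *ns2* to 0.019 on SAM 1.1. Array weights turned *rps6-2* to -0.018 and *rpl10* to 0.045 on SAM 1.1, *rps27* to -0.014 on SAM 2.0, and *rpl17* to -0.0093, *rpl30* to -0.095 and *ns2* to -0.11 on SAM 3.0. The brightest spot turned *rps6-2* to -0.12 on SAM 1.1, *rpp2a* to 0.089 on SAM 2.0, and *rpl17* to -0.028, *rpp2a* to 0.040 and *rpl10* to 0.0050 on SAM 3.0. No background correction turned *rps28* to 0.0031 on SAM 2.0 and *rpl17* to -0.0029 on SAM 3.0. Median centring turned *rps28* to 0.016. Leaving out dim spots turned *rpp2a* to 0.089 on SAM 2.0 and *rpl17* to -0.012 on SAM 3.0. The low and mid scans turned *rpp3a* on SAM 3.0 to 0.0058 and 0.013. *rps21* on SAM 3.0, at -0.00024, became 0.014 with scaling, 0.067 with array weights, 0.0062 with no background correction, 0.0076 with median centring, 9.4e-06 with plain subtraction, 0.0015 in the authors' values, and 0.0060 and 0.046 in the mid and high scans. With a replicate left out, the ratio spanned -0.091 to 0.25 for *rpp2b*, -0.036 to 0.096 for *rps13*, -0.015 to 0.11 for *rpl39*, -0.19 to 0.035 for *rpl10* and -0.19 to 0.070 for *ns2* on SAM 1.1. It spanned -0.13 to 0.079 for *rps28*, -0.030 to 0.13 for *rps27* and -0.089 to 0.36 for *ns2* on SAM 2.0. On SAM 3.0 it spanned -0.22 to 0.028 for *rps6-1*, -0.044 to 0.074 for *rps21*, -0.063 to 0.031 for *rpp3a*, -0.045 to 0.012 for *rpl10*, -0.053 to 0.084 for *rpl30* and -0.27 to 0.097 for *ns1*.

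Pooled SAMs, 2 rounds of amplification, spots that can bind near copies, saturated readings and 6 arrays a chip limit what single genes show. The symbols come from a platform annotation that names few of the spots. The dye effect was larger than the ns effect for 10 of 15, 2 of 15 and 8 of 14 genes.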
